A study of Drosophila melanogaster with 30 samples.

Results

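Cytosolic ribosomal protein genes encode the proteins of the small and large subunits of the ribosome in the cytoplasm. The genes described here were those whose symbol in the deposited probe annotation begins with RpS or RpL, or equals sta, without RpS5b, RpS19b and RpLP0-like. Probe sets, the groups of short probes that read one transcript on the array, were used only where the annotation gives them a single gene. By this rule 34 of the 10844 genes with such a probe set were members, each read by 1 probe set. The reference annotation lists 90 protein-coding genes that the rule matches, so the other ribosomal protein genes, sta among them, were not analysed here.

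RNA was measured in Drosophila Kc cells, an embryo-derived line that resembles blood cells (hemocytes) and has a tetraploid female karyotype according to the labels. The cells received double-stranded RNA for 4 days of RNA interference (RNAi), and biotin-labelled cRNA from 10 µg of total RNA was hybridised to Affymetrix fly arrays. The knockdown groups were Mip40, Mip120, Mip130, Lin-52, Myb, E2F2, the 2 Rb proteins RBF1 and RBF2 depleted together (labelled RBFs), L(3)MBT and E2F1. The control cells received a nonspecific RNA derived from the pBSK+ plasmid, called SK+. Each of the 10 groups had 3 arrays, 30 in all. All groups are treatments of 1 cell line. Whether the 3 arrays of a group stand for separate cultures is not given, and the p-values speak only of the spread among these samples, which may be technical.

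The targets other than E2F1 and L(3)MBT belong to dREAM, also called Myb-MuvB. This is a chromatin-bound complex in which repressor E2F and Rb proteins join Myb and the MuvB proteins to control transcription. E2F1 is the activating E2F of flies, and L(3)MBT is a chromatin protein that associates with the complex. Ribosomal protein genes are expressed in every growing cell and their mRNAs are among the most abundant. The ribosome needs most of its proteins in equal amounts. Flies that lose one copy of many of these genes show the Minute phenotype of slow growth and short bristles. Each comparison asks whether depleting a subunit or partner of the complex, or E2F1, changed the levels of these mRNAs.

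The RNAi targets were checked first. Of the 9 target transcripts with a probe set of their own, 8 passed the filter on low signal, and all 8 were lower in their own knockdown, at 19.3% (E2f2) to 78.1% (l(3)mbt) of the control level. Not all of these were far above background, since probe sets with no fly target had control means of up to 6.22. mip130 averaged 5.78 in its knockdown and 6.26 in control, and l(3)mbt 6.37 and 6.73. All tested probe sets with signals between 6 and 7 had a median difference of -0.10 after L(3)MBT knockdown. How far mip130 and l(3)mbt were depleted is therefore uncertain. Rbf was too dim to be tested and Myb had no probe set assigned to it alone. Of 12 listed hemocyte marker symbols, among them both Col4a1 and its older name Cg25C, 10 were measured. Hml, Ppn and Pxn had control means of 11.27, 10.95 and 9.96, while NimC1 and Sr-CI, with 3.45 and 3.38, lay at background, so some hemocyte markers were bright and others were not above background in control. The 3 L(3)MBT arrays stood apart: on a linear scale their trimmed mean signal lay 5.7% to 9.93% above that of the median array, against -1.99% to 3.2% for all other arrays. Member results for this knockdown are therefore given with and without further normalization, while cell type marker values are given as deposited only. Signals and differences below are on a log2 scale; the base of the logarithm is unstated and was read from the range of the values (1.949 to 13.597).

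The members fell into a very bright and a dimmer set. Across the 30 arrays, 26 members had mean signals from 11.46 to 13.37, at or above the 99.2 percentile of all probe sets, and 24 of them were among the 100 brightest probe sets. The 5 brightest were RpS26, with a mean of 13.37, RpL17 with 13.35, RpS20 with 13.18, RpS7 with 13.09 and the stalk protein gene RpLP1 with 13.04. Levels of different genes depend on their probes, so this order is one of signal and not of mRNA number. The values of the brightest members lie near the upper end of the table, and whether their spots were saturated was not tested.

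The other 8 members ranged from 8.81 down to 3.11, with none between 8.81 and 11.46. RpS29, RpL7-like and RpL24-like had means of 8.81, 8.53 and 8.29. RpL24-like is related to yeast Rlp24, an assembly factor of the large subunit, and RpL7-like to a family of nucleolar proteins, so neither name marks a standard ribosome component. RpL37-2, the dimmer of 2 genes for the same large subunit protein, had a mean of 7.72, against 12.62 for its copy RpL37-1. RpS28a had a mean of 6.44, against 12.94 for its copy RpS28b, and RpL10Aa a mean of 3.11, against 12.63 for its copy RpL10Ab. In each of these pairs the bright copy was measured far above the dim one on every array. Whether the probes of the dim copies also read the bright copies was not tested.

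The 23 control probe sets with no target in flies had control means from 3.16 to 6.22. RpS10a, RpL22-like and RpL10Aa had control means of 5.89, 5.03 and 3.14, inside or below that range. These 3 did not rise above their own array's median signal on at least 3 arrays and were not tested. Their group means spanned 5.65 to 6.15, 4.61 to 5.04 and 3.0 to 3.2. RpS28a passed the filter on 4 arrays, the 3 Mip120 arrays and 1 L(3)MBT array, so it entered the tests largely through the group in which it was highest. The tests below cover the 31 members that passed.

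**Figure D1:**
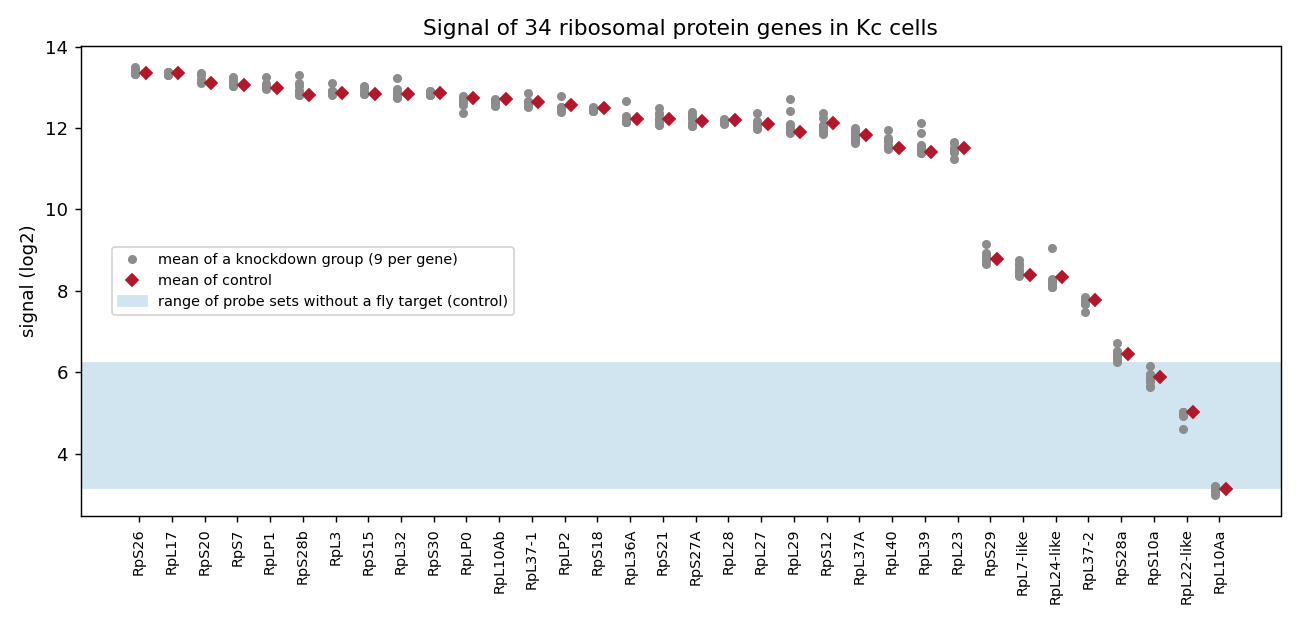
Mean log2 signal of each of the 34 genes (x axis, brightest first) in the 9 knockdown groups (grey points) and in control (red diamonds). The band spans the control means, 3.16 to 6.22, of probe sets with no fly target; 26 genes lie above 11 and 3 lie inside or below the band.

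The range of the bright members' 10 group means had a median of 0.35, against 0.48 for the 126 other bright probe sets and 0.52 for all tested probe sets. It ran from 0.08 for RpL17 to 0.84 for RpL29, a protein found only in eukaryotic ribosomes. Their standard deviation within groups had a median of 0.0417, against 0.0681 over all tested probe sets. By an F test over the 9 knockdowns, 28 of 31 members differed from control somewhere, beside 93.9% of all tested probe sets. RpS28a, which passed the filter mainly on the Mip120 arrays, is counted among the 28. RpL17, RpS18 and RpS30, whose product is made as a fusion to a ubiquitin-like protein, did not pass the F test. As deposited, RpL17 held group means between 13.30 and 13.38 and RpS30 between 12.81 and 12.90. After L(3)MBT knockdown, however, RpL17, RpS18 and RpS30 were each called lower under quantile normalization and cyclic loess, and higher after median centring.

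Of the 31 members 24 were called after L(3)MBT knockdown (77.4%, beside 73.4% of all tested probe sets) and 14 after E2F1 knockdown (45.2%, beside 54.2%). At most 6 were called after any other knockdown, and the 6 after Mip120 knockdown include RpS28a. The L(3)MBT and E2F1 knockdowns also had the most calls over the whole array. L(3)MBT was the group with the highest mean for 23 of the 26 bright members. Measured against the control mean, the median difference of the bright members was 0.22, 0.23 and 0.23 on the 3 L(3)MBT arrays, 0.06, 0.08 and 0.05 on the E2F1 arrays, -0.10 to 0.03 on the other knockdown arrays, and 0.06, 0.01 and -0.05 on the control arrays. As deposited, the L(3)MBT arrays thus lay apart from every control array in this median, while the E2F1 arrays met the highest control array. Under quantile normalization the L(3)MBT arrays stood at 0.04, 0.00 and -0.02, the E2F1 arrays at 0.00, 0.03 and 0.02, and control at 0.02, 0.00 and -0.01. Under cyclic loess the L(3)MBT arrays stood at -0.07, -0.01 and -0.07, the E2F1 arrays at 0.10, 0.05 and 0.06, and control at 0.01, 0.00 and 0.01.

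**Figure D2:**
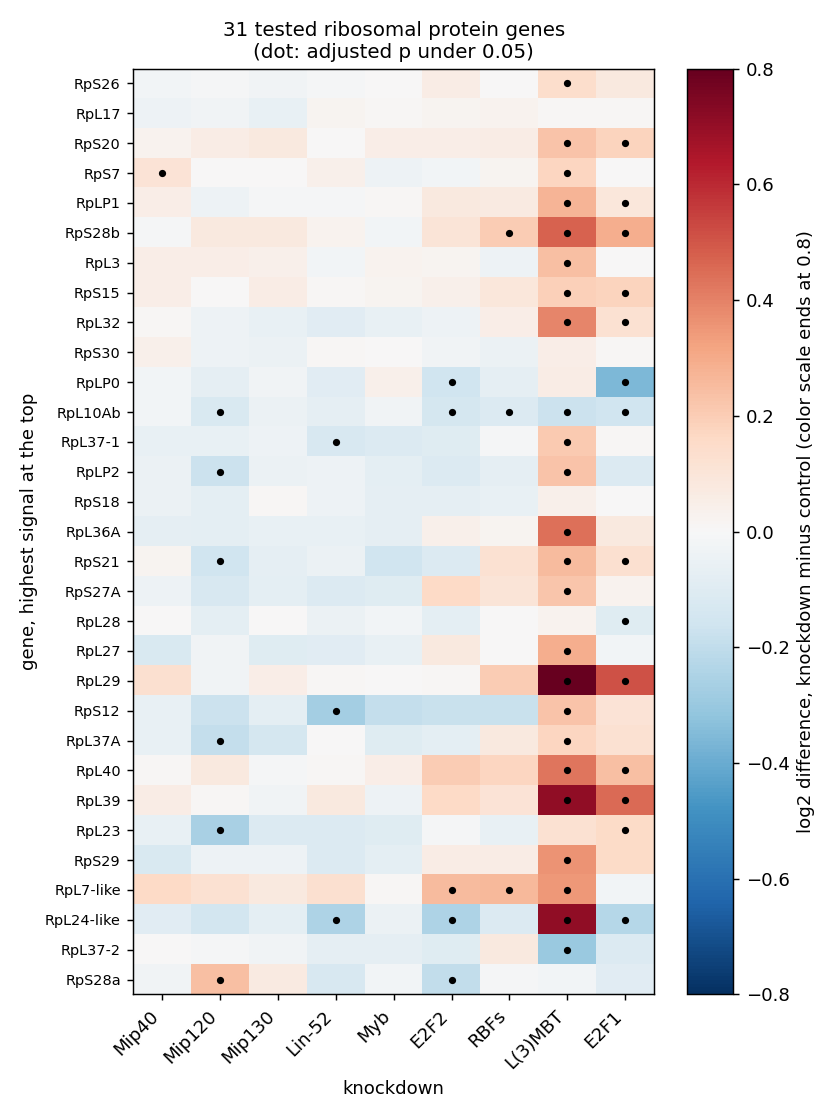
Log2 difference, knockdown minus control, for the 31 tested genes (rows, highest signal at the top) in the 9 knockdowns (columns), with a dot where the limma adjusted p is under 0.05. As deposited, 22 dots mark higher and 2 lower values in the L(3)MBT column; under cyclic loess normalization the split there is 9 higher and 10 lower.

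After L(3)MBT knockdown 22 of 31 members rose and 2 fell by limma's test with Benjamini-Hochberg adjustment, beside 73.4% of all tested probe sets called, 38.9% higher and 34.6% lower; under quantile normalization 11 rose and 8 fell, and under cyclic loess 9 rose and 10 fell. The members had a median difference of 0.23 and all tested probe sets one of 0.02. The medians were 0.03 and -0.04 after quantile normalization, -0.05 and 0.00 after cyclic loess, and 0.33 and 0.12 when each array was centred on its median, a scaling that moves all genes up together. Other bright probe sets shifted too. The 26 bright members had a median of 0.22, with 19 higher and 1 lower, and the 126 other probe sets with means above 11 also one of 0.22, with 81 higher and 20 lower, though these are dimmer on the whole. By signal class, the members' medians were 0.30 between 11 and 12 (4 members), 0.23 between 12 and 13 (17) and 0.17 between 13 and 14 (5), and those of the other probe sets 0.28 (72), 0.15 (47) and 0.06 (7). Over all tested probe sets the median difference was -0.10 for signals between 6 and 7, 0.12 between 8 and 9, 0.28 between 11 and 12 and 0.11 between 13 and 14. The part of this dependence on signal in the rises of the bright members was not tested.

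**Figure D3:**
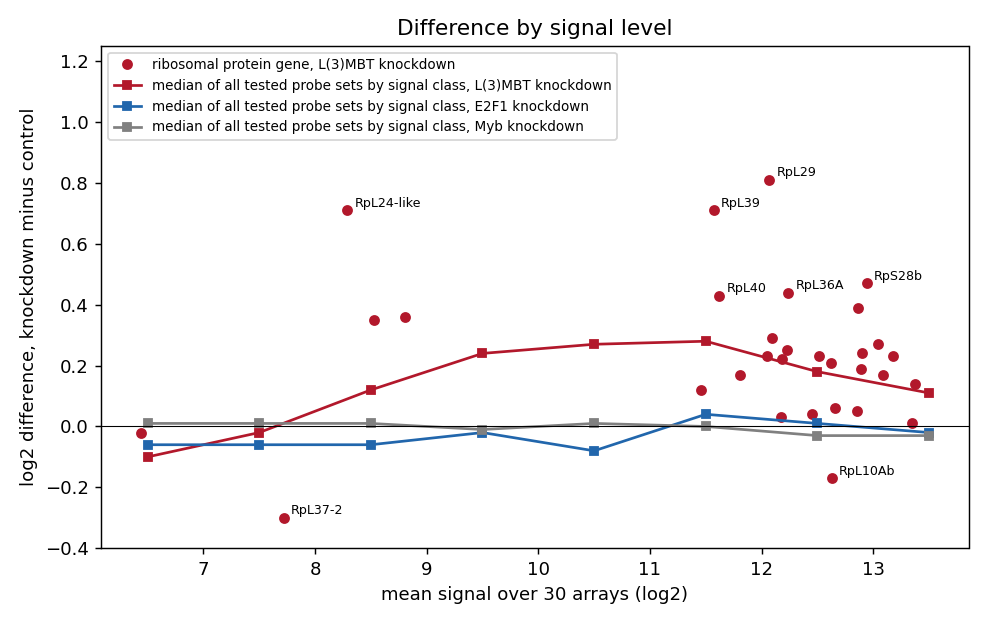
Log2 difference after L(3)MBT knockdown, knockdown minus control, of the 31 genes (red points) against their mean log2 signal, with the median of all tested probe sets by signal class for the L(3)MBT (red), E2F1 (blue) and Myb (grey) knockdowns. RpL29, RpL39 and RpL24-like stand at 0.81, 0.71 and 0.71, above the L(3)MBT line, while most bright genes lie close to it.

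The largest rises were those of RpL29, RpL39 and RpL24-like. RpL29 read 12.72, 12.71 and 12.72 on the L(3)MBT arrays, against 11.98, 11.97 and 11.77 on the control arrays. All L(3)MBT values were higher than all control values. The difference was 0.81 (SE 0.0749, 1.75-fold, adjusted p = 1.38e-10), and it was 0.66 after quantile normalization and 0.54 after cyclic loess. RpL39, a very small protein that lines the exit tunnel of the large subunit, read 12.15, 12.11 and 12.12 on the L(3)MBT arrays, against 11.63, 11.34 and 11.30 on the control arrays. The groups were again apart, with a difference of 0.71 (SE 0.0709, adjusted p = 6.92e-10) and of 0.45 under both other normalizations. RpL24-like read 9.06, 8.95 and 9.14 on the L(3)MBT arrays, against 8.6, 8.24 and 8.19 on the control arrays, where replicate 1 was higher than the other two. Its difference was 0.71 (SE 0.0898, adjusted p = 5.98e-08), with 0.49 and 0.60 under quantile and cyclic loess normalization.

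Beside these 3, RpS28b rose by 0.47, RpL36A by 0.44, RpL40 by 0.43, RpL32 by 0.39 and RpL7-like by 0.35. RpL40 is made as a fusion to ubiquitin, and RpL32, also known as rp49, is widely used as a reference gene in flies. RpL32 read 13.25, 13.19 and 13.22 on the L(3)MBT arrays, against 12.90, 12.86 and 12.73 on the control arrays, with no overlap. These 8 members were called higher under the deposited values, quantile normalization, cyclic loess and median centring alike. RpL32 was at 0.16 and 0.11 and RpL40 at 0.15 and 0.17 after quantile and cyclic loess normalization, so their sizes depended on the scaling.

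Among the small subunit genes 8 of 10 bright members rose and none fell as deposited, with 2 and 2 under quantile normalization and 1 and 4 under cyclic loess. Among the large subunit genes 11 of 16 bright members rose and 1 fell as deposited, with 7 and 5 under quantile normalization and 5 and 5 under cyclic loess. These counts stand beside 38.9% of all tested probe sets higher and 81 of the 126 other bright ones. The stalk genes RpLP1 and RpLP2, whose products bind elongation factors, rose by 0.27 and 0.23, while RpLP0, which anchors them, was at 0.06 (12.75, 12.80 and 12.83 on the L(3)MBT arrays, 12.88, 12.57 and 12.76 on the control arrays) and did not pass. After cyclic loess RpLP1 and RpLP2 were at -0.01 and -0.05. RpLP0 was called lower under quantile normalization and cyclic loess and higher after median centring, so its direction depended on the scaling. RpS27A, the other ubiquitin fusion, rose by 0.22 with overlapping groups and was at -0.05 under both other normalizations.

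RpL37-2 and RpL10Ab fell. RpL37-2 read 7.46, 7.6 and 7.37 on the L(3)MBT arrays, against 7.82, 7.72 and 7.80 on the control arrays. The groups were apart, with a difference of -0.30 (SE 0.0532, adjusted p = 1.01e-05) that was called under every alternative, from -0.36 to -0.20. Its copy RpL37-1 rose by 0.21 as deposited and was at -0.07 after cyclic loess. RpL10Ab read 12.51, 12.52 and 12.60 on the L(3)MBT arrays, against 12.77, 12.73 and 12.66 on the control arrays, again apart. Its difference was -0.17 (SE 0.0389, adjusted p = 2.25e-04), -0.40 after quantile normalization and -0.45 after cyclic loess, and it was not called after median centring (-0.07).

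**Figure D4:**
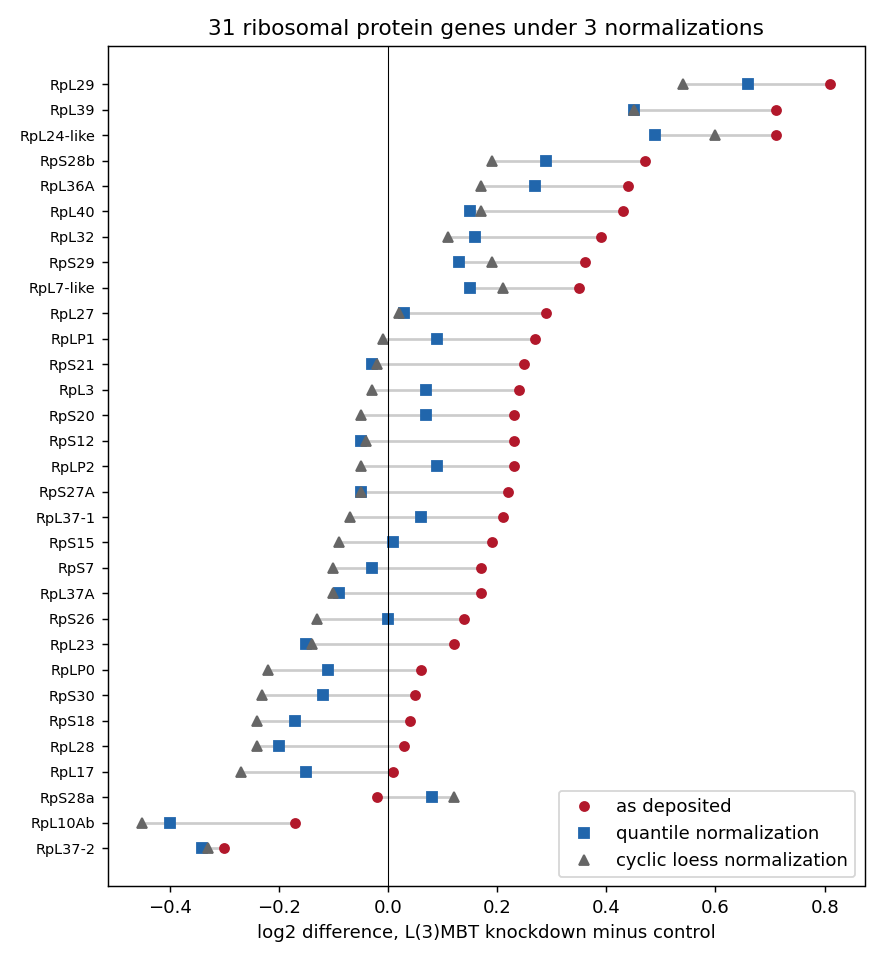
Log2 difference after L(3)MBT knockdown, knockdown minus control, of the 31 genes (rows, largest deposited difference at the top) for the deposited values (red circles), quantile normalization (blue squares) and cyclic loess (grey triangles). RpL29, RpL39 and RpL24-like stay at or above 0.45 under all 3, whereas 12 genes that rose as deposited lie below 0 after cyclic loess.

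Hemocyte markers also moved in this knockdown. Their mean over the 10 measured markers was 7.23 to 7.33 on the L(3)MBT arrays and 7.6 to 7.86 on the control arrays, and of the 8 tested 2 rose and 5 fell. The mean of 3 germ line markers was 6.75 to 6.92 on the L(3)MBT arrays and 6.45 to 6.71 on the control arrays, with vas and aub called higher and bam at 6.54 in the knockdown and 6.74 in control. All 3 tested fat body markers were called lower, with array means of 7.18 to 7.26 in the L(3)MBT knockdown and 7.46 to 7.54 in control. Beside these marker calls, 38.9% of all tested probe sets were higher and 34.6% lower in the L(3)MBT knockdown. The hemocyte mean was also below the control range on the arrays of Mip40 (6.96 to 7.02), RBFs (7.01 to 7.12), Lin-52 (7.07 to 7.2), Mip130 (7.23 to 7.31), Mip120 (7.36 to 7.45) and Myb (7.44 to 7.53), and above it on the E2F2 arrays (8.0 to 8.08). The germ line mean was above the control range on the arrays of RBFs (7.29 to 7.42), E2F2 (7.29 to 7.39), Mip130 (7.25 to 7.37), Mip120 (7.14 to 7.31) and Lin-52 (6.75 to 6.84). In each of these knockdowns 1 of the 3 markers was called higher and 1 lower. The marker vas averaged 7.75, 7.72 and 7.54 after RBFs, E2F2 and Mip130 knockdown, against 4.75 in control. In the same order aub averaged 8.14, 8.19 and 7.92, against 8.20, and bam 6.12, 6.07 and 6.47, against 6.74. The part of these changes in the members' results was not tested, and in bulk RNA fewer cells of a type and less RNA per cell cannot be told apart.

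After E2F1 knockdown 10 of 31 members rose and 4 fell, beside 54.2% of all tested probe sets called, 22.9% higher and 31.3% lower. The members had a median of 0.03 and all tested probe sets one of -0.05. Under quantile normalization 7 rose and 6 fell, under cyclic loess 10 and 3, and after median centring 12 and 2. The hemocyte markers had array means of 7.61 to 7.69 in this knockdown and 7.6 to 7.86 in control, but single markers moved far in both directions, with 3 of 8 higher and 4 lower. Pxn averaged 7.34 in the E2F1 knockdown and 9.96 in control, Ppn 9.01 and 10.95, and eater 7.45 and 5.41. The germ line markers had array means of 6.11 to 6.26 in the E2F1 knockdown and 6.45 to 6.71 in control. Of these 3 markers 2 were called lower and 1 higher, with aub at 8.62 in the knockdown and 8.20 in control. The part of these changes in the members' results was not tested. RpL29 and RpL39 again led. RpL29 read 12.43, 12.44 and 12.38 on the E2F1 arrays, against 11.98, 11.97 and 11.77 on the control arrays, a difference of 0.51 (SE 0.0749, adjusted p = 9.06e-07) without overlap. RpL39 read 11.70, 12.02 and 11.90 on the E2F1 arrays, against 11.63, 11.34 and 11.30 on the control arrays, a difference of 0.45 (SE 0.0709, adjusted p = 2.77e-06) with only 0.07 between the nearest arrays of the groups. RpS28b rose by 0.29, RpS20 by 0.18 and RpS15 by 0.18, and these 5 were called under every alternative. RpL40 rose by 0.24 with overlapping groups, and its call was lost under quantile normalization and without control replicate 2. The rises of RpL32 (0.12), RpL23 (0.15), RpS21 (0.13) and RpLP1 (0.09) were each lost without control replicate 3 and without E2F1 replicate 2, among others.

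RpLP0 had the largest fall. It read 12.38, 12.38 and 12.36 on the E2F1 arrays, against 12.88, 12.57 and 12.76 on the control arrays. The E2F1 arrays lay close together and below all control arrays, with a difference of -0.36 (SE 0.0516, 0.777-fold, adjusted p = 4.80e-07) called under every alternative. Of its stalk partners, RpLP1 was 0.09 higher, and RpLP2 was at 12.44 ± 0.0387 in the E2F1 knockdown and 12.56 ± 0.0952 in control (SD, n = 3). RpLP2's difference of -0.11 did not pass as deposited (adjusted p = 0.0516) and was called lower under quantile normalization and cyclic loess. RpL10Ab read 12.59, 12.57 and 12.52 on the E2F1 arrays and fell by 0.16, also under every alternative. RpL24-like fell by 0.23 and RpL28 by 0.10. Both calls were lost after median centring, under cyclic loess, in the 6 arrays of the contrast alone and without E2F1 replicate 1. Without E2F1 replicate 2 the knockdown had 9 called members in place of 14.

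E2F2 is the repressor E2F of the complex. After its knockdown 1 member rose and 4 fell, beside 25.5% of all tested probe sets called, 16.4% higher and 9.12% lower, and the members' median and that of all tested probe sets were both -0.01. Under quantile normalization 2 rose and 9 fell, under cyclic loess 1 and 8, and after median centring 3 and 2. RpL7-like read 8.59, 8.65 and 8.68 on the E2F2 arrays, against 8.43, 8.43 and 8.32 on the control arrays. It rose by 0.25 (SE 0.0598, adjusted p = 0.00291) without overlap and under every alternative. RpL10Ab read 12.58, 12.58 and 12.57 on the E2F2 arrays, against 12.77, 12.73 and 12.66 on the control arrays, a fall of 0.14 (SE 0.0389, adjusted p = 0.00712) that also held under every alternative. RpL24-like fell by 0.25, RpS28a by 0.20 and RpLP0 by 0.16, the last with overlapping groups; each of these calls was lost without control replicate 1 and without E2F2 replicate 3. RpS28a lay near background in both groups.

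After depletion of both RBFs 2 members rose and 1 fell, beside 23.3% of all tested probe sets called, 11.5% higher and 11.9% lower, and 4, 5 and 2 rose with none falling under quantile normalization, cyclic loess and median centring. RpL7-like read 8.62, 8.68 and 8.65 on the RBFs arrays, above all 3 control arrays, and rose by 0.26 (SE 0.0598, adjusted p = 0.00174). RpS28b read 13.07, 13.02 and 12.99 on the RBFs arrays, against 12.90, 12.83 and 12.73 on the control arrays, and rose by 0.20 (SE 0.0483, adjusted p = 0.00216). Both calls held under every alternative. RpL10Ab fell by 0.11, a call lost in 11 of 17 alternatives, among them leaving out any RBFs array.

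Mip120, which binds DNA, and Mip130 are subunits of the MuvB core. After Mip120 knockdown 5 members fell and, leaving RpS28a aside, none rose, beside 19.2% of all tested probe sets called, 8.67% higher and 10.5% lower; with RpS28a counted, 2 were higher and 5 lower under quantile normalization and 2 and 2 under cyclic loess. RpL23, at the interface of the subunits, read 11.19, 11.25 and 11.30 on the Mip120 arrays, against 11.59, 11.53 and 11.40 on the control arrays. It fell by 0.26 (SE 0.0627, adjusted p = 0.00285) without overlap and under every alternative. RpL37A fell by 0.19, RpLP2 by 0.17, RpS21 by 0.16 and RpL10Ab by 0.12, and all 4 calls were lost without control replicate 1 and without Mip120 replicate 2. With either of these arrays, or Mip120 replicate 1, left out, 2 members were called in place of 6, RpS28a included in the 6. RpS28a read 6.76, 6.63 and 6.72 on the Mip120 arrays and 6.45, 6.38 and 6.56 on the control arrays; since the Mip120 values let it pass the filter, its call there is no result. After Mip130 knockdown no member passed limma's adjusted test, beside 11% of all tested probe sets called, 5.02% higher and 5.98% lower, while 2 members had an unadjusted p under 0.05. The member differences ran from -0.14 to 0.08, and their 95% confidence intervals reached from -0.27 to 0.20.

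Mip40 and Lin-52 are smaller MuvB subunits. After Mip40 knockdown RpS7 alone was called, beside 15.9% of all tested probe sets called, 6.99% higher and 8.92% lower. RpS7 read 13.17, 13.16 and 13.18 on the Mip40 arrays, against 13.05, 13.11 and 13.03 on the control arrays, 0.11 higher (SE 0.0352, adjusted p = 0.0344), and the call was lost in 10 of 17 alternatives, with any Mip40 array or control replicate 1 or 3 left out among them. After Lin-52 knockdown no member rose and 3 fell, beside 19.4% called, 8.74% higher and 10.7% lower; under cyclic loess 1 rose and 2 fell. RpS12, which in flies is needed for cells with too few ribosomal proteins to be recognised by their neighbours, read 11.97, 11.73 and 11.89 on the Lin-52 arrays, against 12.19, 12.15 and 12.05 on the control arrays. It fell by 0.27 (SE 0.0757, adjusted p = 0.0113) without overlap, a call lost without control replicate 1, without Lin-52 replicate 2 and in the 6 arrays alone. RpL24-like fell by 0.25 and RpL37-1 by 0.13, and both calls were lost under the same 3 alternatives and others. After Myb knockdown no member passed limma's adjusted test, with or without a block for the replicate number, beside 5.79% called, 2.36% higher and 3.43% lower, of all tested probe sets. An unadjusted p under 0.05 was found for 3 members, and the differences ran from -0.19 to 0.05.

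**Figure D5:**
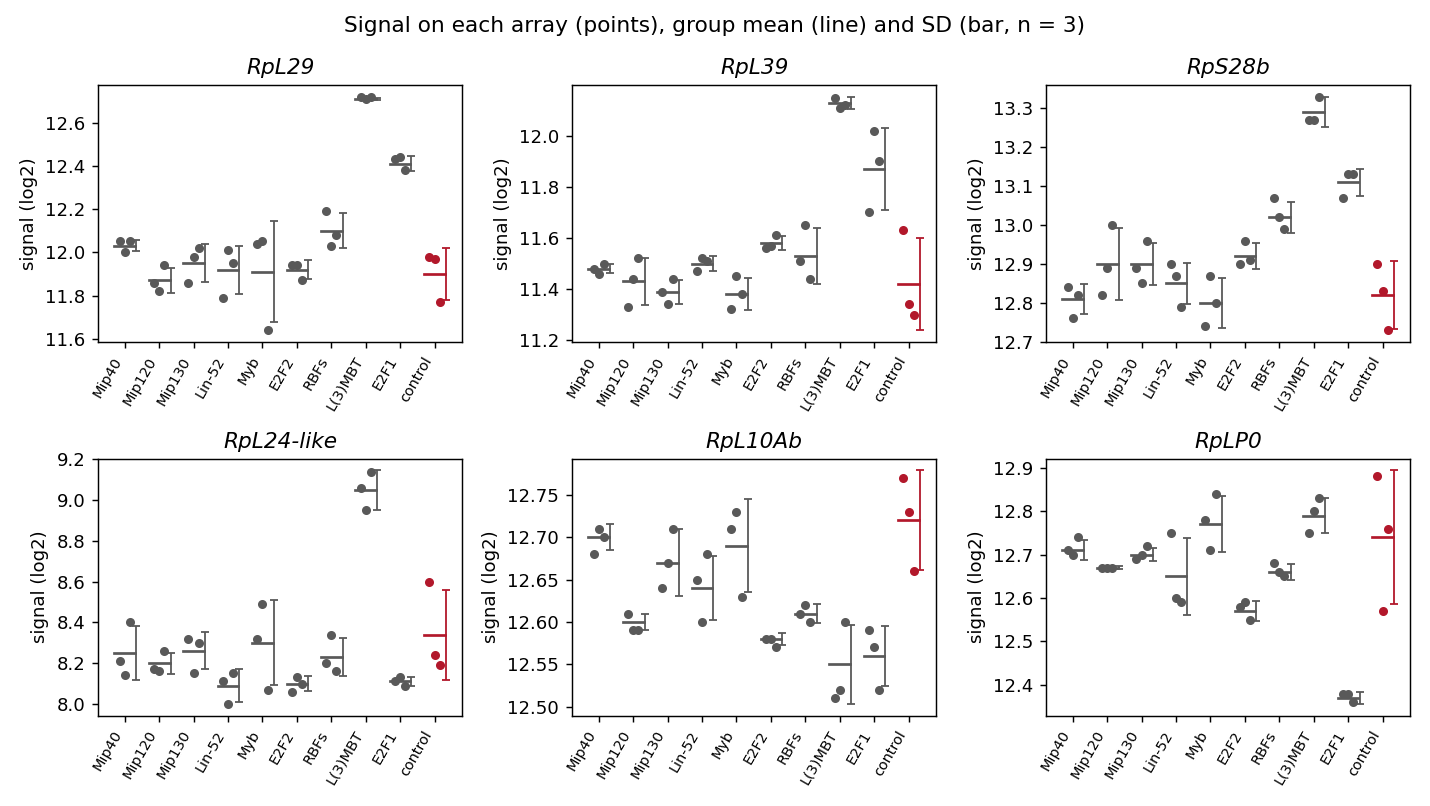
Log2 signal on each array (points), group mean (line) and SD (bar, n = 3) for 6 genes in the 9 knockdown groups and, at the right in red, control. The y axes differ and do not start at 0. RpL29 and RpL39 are highest after L(3)MBT and E2F1 knockdown, and RpLP0 is lowest after E2F1 knockdown.

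Seen by gene on the values as deposited, 3 members were called in no contrast with control, 8 in 1, 15 in 2, 3 in 3, 1 in 4 and 1 in 5. RpS28a is among the 15, with its call after Mip120 knockdown counted. The median was 2 calls for the members and 2 for all tested probe sets, of which 7.13% had none, 29.7% had 1 and 24.9% had 2. These contrasts share the control arrays. RpL10Ab had 5 calls, all lower (Mip120, E2F2, RBFs, L(3)MBT and E2F1), with control as its highest group at 12.72. Its other knockdown means were 12.70 after Mip40, 12.69 after Myb, 12.67 after Mip130 and 12.64 after Lin-52, none of them called. RpL24-like had 4 calls, higher after L(3)MBT and lower after Lin-52, E2F2 and E2F1 knockdown. RpL7-like and RpS28b each had 3 calls, all higher, and RpS21 had 3 calls in both directions. RpL29 was at 11.87 to 12.10 in the 7 knockdowns other than L(3)MBT and E2F1, against 11.90 in control, and RpL39 at 11.38 to 11.58, against 11.42. For both genes none of those 7 differences passed the test as deposited; under quantile normalization and cyclic loess RpL29 was called higher after RBFs knockdown.

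E2F2 and E2F1 act in opposite ways on many promoters, and their knockdowns were compared directly. With E2F2 over E2F1 knockdown, 2 members were higher and 11 lower, beside 31.2% and 21.8% of all tested probe sets (53.0% called in all), and under quantile normalization 4 were higher and 10 lower. RpL29 read 11.94, 11.94 and 11.87 on the E2F2 arrays, against 12.43, 12.44 and 12.38 on the E2F1 arrays, a difference of -0.50 (SE 0.0749, adjusted p = 1.48e-06). RpL39 differed by -0.29 and RpS12 by -0.28. RpS12 averaged 11.96 ± 0.0364 in the E2F2 knockdown and 12.24 ± 0.0681 in the E2F1 knockdown (SD, n = 3 each), and neither knockdown moved it past the test against control as deposited (-0.18 and 0.11), though under quantile normalization and cyclic loess it was called lower after E2F2 knockdown. RpL7-like was higher by 0.27 and RpLP0 by 0.20. Of the 13 calls 9 held under every alternative. Between Mip120 and Mip130 knockdown no member passed limma's adjusted test, beside 2.35% of all tested probe sets (1.33% higher and 1.01% lower), and 3 had an unadjusted p under 0.05. Between Lin-52 and Mip40 knockdown none passed either, beside 13.1% (7.13% higher and 5.98% lower), and 2 had an unadjusted p under 0.05. Here the member differences ran from -0.21 to 0.07.

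The 3 paralogs that the rule leaves out were also measured. RpS5b is a second gene for a small subunit protein that is abundant in the germ line. It read 10.94, 10.96 and 11.03 on the L(3)MBT arrays, 9.85, 9.88 and 9.73 on the Myb arrays, 9.59, 9.62 and 9.74 on the Mip40 arrays and 7.71, 7.65 and 7.65 on the E2F2 arrays, against 8.39, 8.31 and 8.71 on the control arrays. The first 3 groups lay above all control arrays and the E2F2 arrays below them, with differences of 2.51, 1.35, 1.18 and -0.79, each called under quantile normalization, cyclic loess and median centring. RpS5b was also called lower after RBFs (-0.5) and Mip120 knockdown (-0.36). RpS19b, also a gene of germ line and stem cells, rose by 0.92 after L(3)MBT knockdown and fell by 0.72 and 0.71 after Lin-52 and Myb knockdown. As deposited, RpS19b was also called lower after E2F1 (-0.57) and RBFs knockdown (-0.34) and higher after E2F2 (0.34) and Mip130 knockdown (0.29). RpLP0-like, a relative of RpLP0 and of a yeast assembly factor of the large subunit, fell by 0.58 after E2F1 knockdown, where RpLP0 itself fell by 0.36, and was at 0.04 after L(3)MBT knockdown. As deposited, RpLP0-like was also called lower after Mip120 (-0.47), Mip40 (-0.4), Lin-52 (-0.36), RBFs (-0.31) and E2F2 knockdown (-0.26). Of these, RpLP0 was called lower only after E2F2 knockdown. RpS5a and RpS19a, the common copies, had no probe set assigned to them alone.

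Genes outside the ribosome that take part in making or using it were described from 4 lists. After E2F1 knockdown, of 18 tested genes of ribosome biogenesis, 12 fell and none rose, with a median of -0.35 (-0.39 to -0.30 under the 3 other scalings, where 12 or 13 fell and 1 rose), beside 31.3% of all tested probe sets lower and 22.9% higher. The snoRNP protein gene NHP2 fell by 1.09, Surf6, a nucleolar protein gene, by 0.92, and Nop56, of the box C/D snoRNP, by 0.75. Of 6 tested genes of RNA polymerase I and its factors, which make ribosomal RNA, 5 fell, with a median of -0.38, and 4 and 3 of the 6 fell after Mip40 and Mip120 knockdown, with medians of -0.24 and -0.21 (8.92% and 10.5% of all tested probe sets were lower there). Of 10 tested regulators of growth and of ribosomal protein gene transcription, 2 rose and 2 fell after E2F1 knockdown, with a median of 0.04. These shares were below the 22.9% higher and 31.3% lower of all tested probe sets. S6k and Mnt rose by 0.77 and 0.57, and Dref and M1BP, factors that bind core promoters, fell by 0.70 and 0.54. Of 11 elongation and ribosome-associated factors 1 rose and 4 fell, a share near that of all tested probe sets, and under cyclic loess 4 rose and 3 fell.

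After L(3)MBT knockdown 13 of the 18 biogenesis genes rose and 3 fell, with a median of 0.25, beside 38.9% of all tested probe sets higher and 34.6% lower, but under quantile normalization 6 rose and 5 fell and under cyclic loess 7 and 4. Nlp rose by 0.75 and Ns1 by 0.46, while the kinase gene RIOK1 fell by 0.89, all 3 also called under those scalings. Of the 11 elongation factors 6 rose and 1 fell, against 4 and 5 under either other normalization. eEF1alpha2, the tissue-restricted copy of elongation factor 1 alpha, rose by 2.19 (8.65 ± 0.022 in the L(3)MBT knockdown and 6.46 ± 0.158 in control, SD, n = 3), with 2.03 to 2.32 under the other scalings. Of the 10 regulators 6 rose and 2 fell, against 5 and 4 under quantile normalization and 5 and 3 under cyclic loess. Among them Irbp18, a partner of Xrp1 in the response to loss of ribosomal proteins, rose by 1.22. After Mip120 knockdown 9 of 18 biogenesis genes fell and 1 rose, beside 10.5% of all tested probe sets lower and 8.67% higher, with a median of -0.17, among them NHP2 by 0.47 and eIF6 by 0.43, and Non1 rose by 0.44. After Myb knockdown none of the biogenesis, polymerase I or regulator genes passed limma's adjusted test as deposited, and 1 polymerase I gene was called lower under quantile normalization and under cyclic loess.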

How the data were processed

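Total RNA from 30 Kc cell samples was measured on Affymetrix arrays. The deposited table holds 1 value per probe set and array, read here as log2 from its range, since the base is unstated; how the authors normalized and summarised the probes is not given in the sources used here, and per the submitters' processing notes GCOS 1.2.0 was used. Of 14010 probe sets, 44 are array controls, 12443 have 1 gene, 327 several and 1196 none, by the platform annotation, which can be old.

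The members and all gene lists were chosen with earlier results of these data known. Probe sets were tested if they lay above their own array's median on at least 3 arrays, which left 7794 probe sets (6393 genes). One limma 3.58.1 fit in R 4.3.3 over all 10 groups, with an intensity trend in eBayes, gave each contrast on 20 residual degrees of freedom. P-values were adjusted by the Benjamini-Hochberg method over all tested probe sets within a contrast, and adjusted values under 0.05 were called. SE is the moderated standard error from limma. The limit of 11 that separates bright members was chosen after the levels were seen.

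Named were up to 3 of the largest called rises and falls per contrast, up to 8 members with the most calls, the 5 brightest and 5 dimmest, members below the filter, duplicated pairs, the left-out paralogs and up to 3 of the largest called changes per other list and contrast; M1BP and other members given for their role were chosen after their values were seen.

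The alternatives were array weights, a replicate block, each replicate left out, the tested probe sets of each gene averaged, and no intensity trend. Further alternatives were the arrays of a contrast alone, median centring, quantile normalization, and either no filter or one at the 70th percentile. Cyclic loess and leaving out the L(3)MBT arrays were added after seeing the data. Same-numbered arrays deviated together in every pair for the Myb contrast alone (correlations 0.21, 0.401 and 0.58), where the blocked fit also called 0 members. On simulated data for the Mip40 contrast over 7794 probe sets, 98% of changes of 0.5 and 100% of changes of 1 were recovered, with 12 false calls. Smaller changes were not simulated, and the member differences in that contrast ran from -0.12 to 0.16, so recovery at such sizes is not known. Read depth does not apply to arrays; their number, 3 per group, limits the precision.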

Additional observations from a re-analysis of the deposited data

Results flagged for a closer look

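The E2F2 and E2F1 knockdowns differed directly, by limma's test of the difference with Benjamini-Hochberg adjustment, for 13 of 31 ribosomal protein genes. This share of 41.9% was below the 53.0% of all tested probe sets called in this contrast. E2F2 minus E2F1 was -0.50 for RpL29, -0.29 for RpL39, -0.28 for RpS12, -0.24 for RpS21, -0.20 for RpL37A, -0.19 for RpS28b, -0.16 for RpL32, -0.16 for RpL23, -0.14 for RpS15, -0.13 for RpS20 and -0.12 for RpL37-1. It was 0.20 for RpLP0 and 0.27 for RpL7-like. The calls for RpL23, RpS15, RpS20 and RpL37-1 were lost without E2F1 replicate 2, and without it 9 members were called.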

How the results depend on the processing

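Of 69 called pairs of gene and contrast, 30 were called in the same direction under every alternative. The 69 include RpS28a after Mip120 knockdown. Pairs called only under an alternative are not among the 69. Over 1147 alternative values, 966 kept direction and side of the threshold, 164 kept direction without passing, and 17 reversed, all after L(3)MBT knockdown. Under cyclic loess these were RpL3 at -0.03, RpLP1 at -0.01, RpLP2 at -0.05, RpS27A at -0.05, RpS26 at -0.13, RpS21 at -0.02, RpS20 at -0.05, RpL37-1 at -0.07, RpL37A at -0.10, RpS15 at -0.09, RpS7 at -0.10 and RpS12 at -0.04. Under quantile normalization they were RpS27A at -0.05, RpS21 at -0.03, RpL37A at -0.09, RpS7 at -0.03 and RpS12 at -0.05. The cause was not tested.

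Counts of called members moved by over 1.5 times as follows. Quantile normalization gave 2 for Mip40 (1 as reported), 1 for Mip130 (0), 1 for Myb (0), 11 for E2F2 (5) and 1 for Lin-52 against Mip40 (0). Cyclic loess gave 2 for Mip40, 2 for Mip130, 9 for E2F2, 5 for RBFs (3), 1 for Mip120 against Mip130 (0) and 1 for Lin-52 against Mip40. Array weights gave 3 for Mip40, 10 for Mip120 (6), 1 for Mip130, 8 for Lin-52 (3), 10 for E2F2, 3 for Mip120 against Mip130 and 2 for Lin-52 against Mip40. Median centring gave 0 for Mip40 and 1 for Lin-52, no filter 0 for Mip40, 1 for Lin-52 and 9 for E2F1 (14), and no intensity trend 0 for Mip40. The arrays of a contrast alone gave 0 for Mip40, 3 for Mip120, 0 for Lin-52 and 9 for E2F1. A replicate block gave 1 for Lin-52, and no contrast had all of its arrays correlate best with the same-numbered one. The block moved Mip120 less, to 5.

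With 1 replicate left out at a time, the counts were 0 to 1 for Mip40, 2 to 6 for Mip120, 0 to 1 for Mip130, 0 to 4 for Lin-52, 0 to 1 for Myb, 2 to 5 for E2F2, 2 to 4 for RBFs, 22 to 26 for L(3)MBT, 9 to 16 for E2F1, 9 to 13 for E2F2 against E2F1, 0 for Mip120 against Mip130, 0 to 1 for Lin-52 against Mip40, and 25 to 27 for the F test. The brightest members lie near the top of the measured range and the 3 dimmest at background, which limits what either can show.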
